A study of Mus musculus with 14 samples.

Results

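The keratin and keratin-associated genes are the intermediate filament genes of epithelia and the genes of the proteins that embed these filaments in hair. Members were all protein-coding genes of the GENCODE M21 annotation (mouse genome GRCm38/mm10) whose symbol is *Krt* followed by a number or begins with *Krtap*. This gave 110 of the 21755 protein-coding genes on chromosomes 1 to 19 and X: 53 keratins, of which 28 are type I and 25 are type II, and 57 *Krtap* genes. The rule uses no measured value, but it was set with earlier results of these data known.

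Keratin filaments are built from pairs of a type I (acidic) and a type II (basic) keratin, and each epithelium uses its own pairs: *Krt8* and *Krt18* in simple epithelia, *Krt5* and *Krt14* in the basal epidermis, *Krt1* and *Krt10* in the layers above, and many others in hair. *Krtap* genes code for the short cysteine-rich or glycine- and tyrosine-rich matrix proteins of the hair shaft. Both families lie in a few dense clusters that are used mostly in epithelia, skin and its appendages. In meiosis, programmed DNA double-strand breaks (DSBs) are placed by PRDM9, a DNA-binding histone methyltransferase, mostly away from promoters. HELLS is a chromatin remodeler that works with PRDM9. In mice without PRDM9 many DSBs form at promoters and enhancers, at sites that carry histone H3 lysine methylation. The families were examined as genes with tissue-restricted, mostly CpG-poor promoters.

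The study followed DSBs by DMC1 ChIP-SSDS, in which the single strands that DMC1 covers at DSB ends are isolated and sequenced, in whole testis of mice with and without HELLS in meiosis. *Hells* CTRL mice were *Hells* fl/Δ, with 1 floxed and 1 deleted allele, 5 weeks old, with 2 testes per replicate. *Hells* cKO mice were *Hells* fl/Δ;Stra8-iCre, 9 weeks old, with 3 testes per replicate. These ages are from the paper's methods, while the labels call both groups adult. As the 2 genotypes differed in age, age and genotype cannot be told apart. Both groups carry the deleted allele, and they differ by the Cre transgene, which is driven by the *Stra8* promoter in male germ cells and leaves some spermatocytes with HELLS. The data were 2 final peak lists, 1 per genotype, each made by the authors from 2 merged replicates. The *Hells* CTRL list holds 11133 peaks and the *Hells* cKO list 17117, with median strengths of 63 and 31. The strength is the authors' score of a peak, and as it is not normalized between genotypes, each peak is also given by its percentile within its own list. With 1 list per genotype there is no replicate spread, and no difference could be tested across mice. Intervals are exact 95% intervals for counting error only, and neighbouring genes are not independent. Read numbers are not in the lists, so the depth of a strength is not known. The lists hold no expression values, so neither the tissue nor the loss of *Hells* could be checked in them.

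The sequences before the starts show what kind of promoters these are. They are printed 5′ to 3′ on the strand of the gene, from GRCm38.p6, with each CpG dinucleotide in capitals. *Krt10*, a type I keratin of the upper epidermal layers, is shown at its main start, that of its long transcript (minus strand, chr11:99389365-99389614) because its gene holds the *Hells* cKO peak, yet this stretch has 2 CpG. *Krt7*, a type II keratin of simple and glandular epithelia (plus strand, chr15:101412199-101412401, which ends just before its CpG-rich internal starts), and *Krt87*, a type II hair keratin (minus strand, chr15:101438805-101439054), are shown because their starts have the most CpG among the genes without a start-site peak, and their stretches hold 16 and 21 CpG. *Krt2*, a type II keratin of the upper epidermis (minus strand, chr15:101818170-101818419), is shown because it has the *Hells* CTRL peak. *Krt14* (minus strand, chr11:100207549-100207798) and *Krtap12-1* (plus strand, chr10:77720349-77720598) are shown as a keratin of the basal epidermis and as one of the *Krtap* genes with the fewest CpG, and their stretches hold 8 and 0.
Krt10 main start: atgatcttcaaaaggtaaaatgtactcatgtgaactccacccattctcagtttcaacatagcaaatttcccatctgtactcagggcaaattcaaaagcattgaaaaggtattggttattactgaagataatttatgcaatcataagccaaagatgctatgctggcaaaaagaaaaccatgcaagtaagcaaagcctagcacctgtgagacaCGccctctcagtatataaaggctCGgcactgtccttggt
Krt7: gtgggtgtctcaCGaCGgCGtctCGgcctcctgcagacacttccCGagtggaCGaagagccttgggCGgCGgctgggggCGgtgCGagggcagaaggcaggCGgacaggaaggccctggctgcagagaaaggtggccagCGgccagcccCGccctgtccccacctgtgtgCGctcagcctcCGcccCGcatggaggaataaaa
Krt87: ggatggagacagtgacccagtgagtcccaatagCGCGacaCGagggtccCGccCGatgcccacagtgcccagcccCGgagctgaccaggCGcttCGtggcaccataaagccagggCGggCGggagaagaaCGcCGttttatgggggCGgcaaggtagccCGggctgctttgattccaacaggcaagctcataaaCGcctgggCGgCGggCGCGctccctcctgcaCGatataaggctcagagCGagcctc
Krt2: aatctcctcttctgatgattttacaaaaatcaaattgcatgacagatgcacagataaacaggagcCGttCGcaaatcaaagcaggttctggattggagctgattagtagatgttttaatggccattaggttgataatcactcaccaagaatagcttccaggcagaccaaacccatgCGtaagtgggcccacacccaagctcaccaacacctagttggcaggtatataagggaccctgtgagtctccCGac
Krt14: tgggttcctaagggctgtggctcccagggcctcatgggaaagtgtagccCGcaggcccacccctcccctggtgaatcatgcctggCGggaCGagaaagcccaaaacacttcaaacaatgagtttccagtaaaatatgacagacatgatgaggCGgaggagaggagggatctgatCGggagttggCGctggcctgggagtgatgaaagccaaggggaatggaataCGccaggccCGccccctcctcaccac
Krtap12-1: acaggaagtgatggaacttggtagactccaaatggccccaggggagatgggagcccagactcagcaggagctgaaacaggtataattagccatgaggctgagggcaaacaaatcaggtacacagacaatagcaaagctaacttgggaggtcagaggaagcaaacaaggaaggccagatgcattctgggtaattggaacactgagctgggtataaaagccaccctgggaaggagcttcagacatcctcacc

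CpG number was counted within 250 bp of each transcript start, and the start with the most CpG was taken for a gene. The 110 genes had a median of 8 CpG (quartiles 4.25 and 13, range 0 to 55), against 32 (9 and 49) for the other 21645 protein-coding genes. The median ratio of observed CpG to the number that the C and G content gives was 0.260 for members and 0.695 for the others. Keratins had more CpG than *Krtap* genes, with medians of 13 and 5. Among *Krtap* genes the median was 6 on chromosome 16, 3 on chromosome 11 and 1 for the 5 *Krtap5* genes of chromosome 7. Only 8 members (7.27%), all keratins, had 20 or more CpG, against 62.6% of the other genes: *Krt10* (55), *Krt7* and *Krt87* (42 each), *Krt18* (32), *Krt72* (25), *Krt27* and *Krt81* (23 each) and *Krt28* (20). For *Krt10* and *Krt7* the CpG-rich start is an internal one, and their starts farthest upstream have 8 and 3 CpG. Chemosensory receptor genes (symbols *Olfr*, *Vmn1r*, *Vmn2r* and *Taar*), another large clustered family used outside the testis, had a median of 3.

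**Figure D1:**
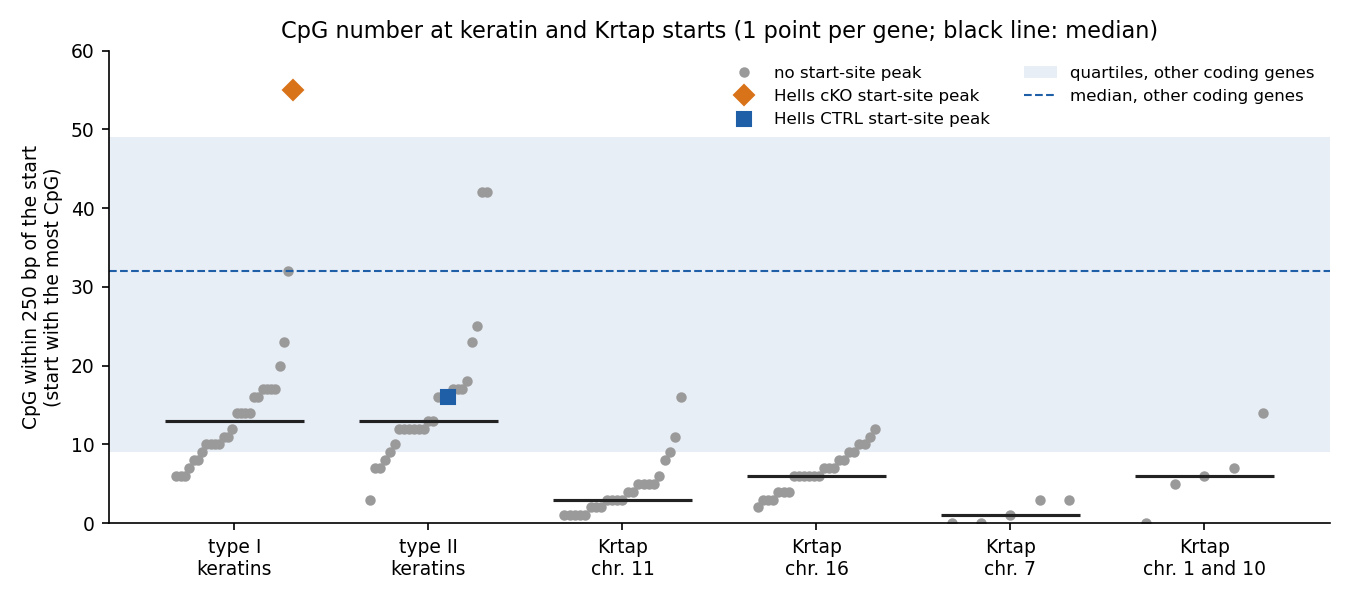
Each point is 1 gene, placed by family on the x axis and by the CpG number within 250 bp of its CpG-richest start on the y axis. Black lines are family medians, and the band and the dashed line are the quartiles (9 and 49) and the median (32) of the other protein-coding genes. Most keratin and *Krtap* points lie under the dashed line. The orange diamond is *Krt10*, the gene with a *Hells* cKO start-site peak, and the blue square is *Krt2*, the gene with a *Hells* CTRL one.

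A promoter feature that the rule did not use was more frequent in members than in other genes, though most members lacked it. The letters TATAAA, searched on the strand of the gene with the first T 20 to 40 bp upstream of the start farthest upstream, were found at 48 of 110 members (43.6%), against 482 of the other 21645 genes (2.23%). They were found at 32 of 57 *Krtap* genes and 16 of 53 keratins, *Krt10* among them, where they begin 26 bp upstream of the main start. Anywhere in the 300 bases from 250 before the start to 50 after it, on either strand, they were found at 65.5% of members and 12.4% of the other genes. In chemosensory receptor genes, which are also CpG-poor, the share near the start was 2.70%, and in all other genes with under 20 CpG it was 4.54%. A match is a description of the letters and not of a bound factor.

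Peaks were rare at the starts of these genes in both genotypes. A gene was said to have a start-site peak when a peak center lay within 1 kb of any of its transcript starts. In *Hells* CTRL, 1 of 110 members had one (0.909%, 95% interval 0.0230 to 4.96), where 2.7% of all protein-coding genes did. In *Hells* cKO, again 1 of 110 had one (0.909%), where 45.6% of all protein-coding genes did. The members' share was under the background by far in *Hells* cKO, whereas in *Hells* CTRL the interval includes the background. The genes were different, *Krt2* in *Hells* CTRL and *Krt10* in *Hells* cKO, and in both lists 0 of 57 *Krtap* genes had a start-site peak (upper limit 6.27%). Chemosensory receptor genes had shares close to those of the members. Of these receptor genes, 12 of 1479 (0.811%) had a *Hells* cKO start-site peak and 7 (0.473%) a *Hells* CTRL one. They are poorer in CpG, however, and 84.0% of them had 0 to 4 CpG, against 25.5% of members.

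The *Krt2* peak of *Hells* CTRL lay at chr15:101818261-101819694 with a strength of 71, at percentile 53.7 of its list and 59.7 among the 582 peaks at protein-coding starts. Its center was 809 bp upstream of the start, in the space toward *Krt1*, and had 5 CpG within 250 bp, fewer than the 16 at the start itself. The nearest *Hells* cKO peak center was 256 kb from that start. The center was thus outside the promoter stretch printed above. The interval of the peak overlapped that stretch but did not reach the start. With a reach of 500 bp in place of 1 kb no member had a *Hells* CTRL start-site peak.

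The *Krt10* peak of *Hells* cKO lay at chr11:99385379-99387300 with a strength of 34, at percentile 54.2 of the list but 38.6 among the 9303 peaks at protein-coding starts, whose median strength was 45. Its center was 243 bp upstream of the start of a short internal transcript and 3024 bp from the main start. It fell in the intron between exons 6 and 7 of the long transcript, 71 bp from exon 7, and 44 CpG lay within 250 bp of it. Exon 7 codes for part of the glycine-rich tail of keratin 10 and holds 51 CpG in 339 bases, against 21 in the 626 bases of exon 1. The 250 bases before the internal start (minus strand, chr11:99386098-99386347) contain the peak center and have 36 CpG, and 172 of these bases are coding sequence of exon 7. They are shown beside the 100 bases at the peak center (plus strand, chr11:99386290-99386389), since this is where the only *Hells* cKO peak in the gene bodies was.
Krt10 internal start: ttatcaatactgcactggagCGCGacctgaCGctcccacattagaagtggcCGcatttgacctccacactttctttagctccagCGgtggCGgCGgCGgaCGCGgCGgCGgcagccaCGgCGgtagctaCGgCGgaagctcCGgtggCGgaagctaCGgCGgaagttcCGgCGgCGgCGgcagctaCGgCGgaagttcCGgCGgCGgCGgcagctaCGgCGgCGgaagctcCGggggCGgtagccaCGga
Krt10 peak center: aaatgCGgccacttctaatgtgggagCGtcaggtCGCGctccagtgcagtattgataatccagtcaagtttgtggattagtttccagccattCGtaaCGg

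When only the start farthest upstream of each gene was counted, a choice made after the place of the *Krt10* peak was seen, 0 of 110 members had a *Hells* cKO peak within 1 kb (upper limit 3.30%), where 41.2% of all protein-coding genes did. Apart from the internal start of *Krt10*, no annotated start of a keratin or *Krtap* gene had a *Hells* cKO peak within 1 kb.

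The CpG number of a start went with the share of genes that had a *Hells* cKO start-site peak, so members were compared with other genes of the same CpG class. Among the other protein-coding genes the share was 0.226% with 0 to 4 CpG, 2.83% with 5 to 9, 22.0% with 10 to 19, 50.2% with 20 to 29 and 71.6% with 30 or over. In *Hells* CTRL the shares went only from 0.582% to 3.65%. Of the members, 28 and 34 were in the lowest classes, where few genes of any kind had a peak, and 0 of them had one. In the class of 10 to 19 CpG, 0 of 40 members had a *Hells* cKO peak (upper limit 8.81%), against 586 of 2665 other genes (22.0%, 20.4 to 23.6). In the classes above, 0 of 4 and 1 of 4 members had one. At the class shares of the other genes, the members would have held 14.7 *Hells* cKO start-site peaks, and they held 1. In *Hells* CTRL the corresponding number was 1.65, and they held 1.

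At the share of all protein-coding genes, 110 genes would have held 50.2, so matching on CpG class lowered the number to 14.7 and left it above the count. Among genes with no start of another gene within 2 kb, the members would have held 11.5 *Hells* cKO peaks at the class shares, and 0 of 102 members had one, since *Krt10* itself has the start of another gene within 2 kb and was left out. When 1 start per gene was counted the number was 15.96, against 0. In Hox genes, the CpG-rich regulators of the body plan, 4 of the 25 with 30 or more CpG (16%) had a *Hells* cKO peak, also under the 71.6% of their class, so a low share within a CpG class was not a property of keratin genes alone. Chemosensory receptor genes had *Hells* cKO shares of 0.0805% with 0 to 4 CpG, 2.94% with 5 to 9 (6 of 204) and 10% with 10 to 19 (3 of 30). The intervals of these shares include those of the other protein-coding genes of the same class, of which they are a part. Whether expression or chromatin state in germ cells moved with the shares was not tested.

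**Figure D2:**
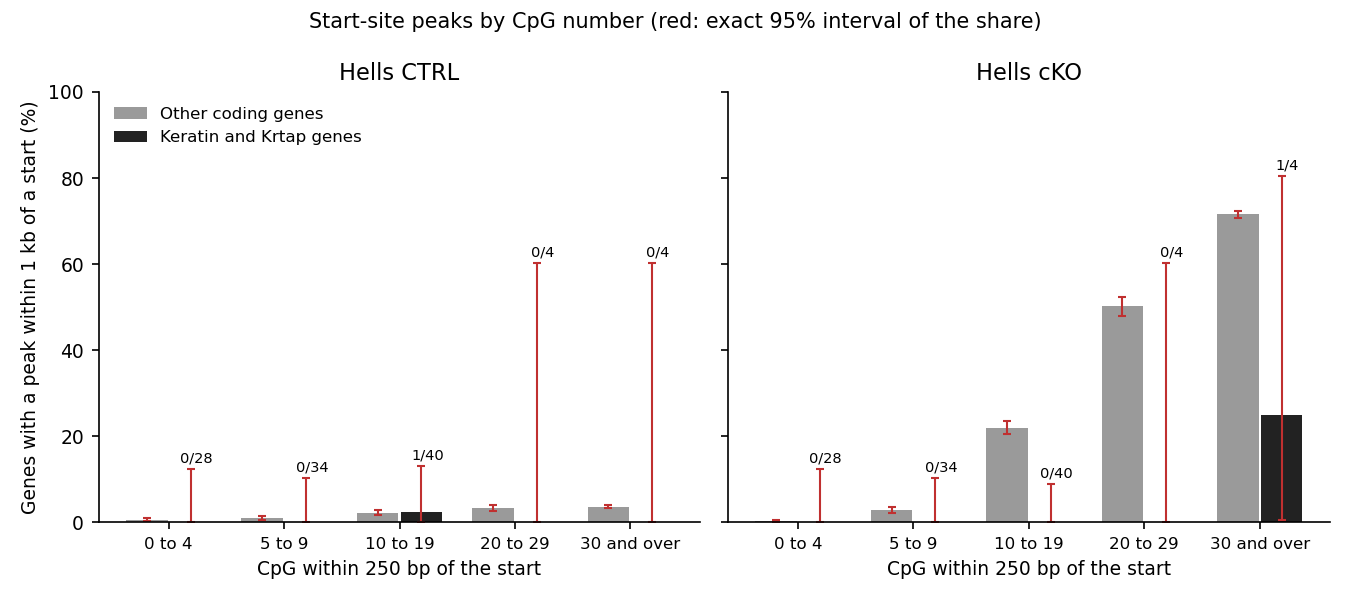
Share of genes with a peak center within 1 kb of a transcript start (y axis, percent) by the CpG number at the start (x axis), for *Hells* CTRL (left) and *Hells* cKO (right). Gray bars are other protein-coding genes, black bars are keratin and *Krtap* genes with their counts above, and red lines are exact 95% intervals of the share. In *Hells* cKO the gray bars climb from 0.226% to 71.6%, while members have 0 of 40 in the class of 10 to 19 CpG and 1 of 4 in the top class.

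The best known keratins were all away from *Hells* cKO peaks, with *Krt10* as the exception. Among the keratins of simple epithelia, *Krt8* (12 CpG) was 69.7 kb from the nearest *Hells* cKO peak center, *Krt18* (32 CpG) 46.0 kb, *Krt19* (11 CpG) 172 kb, *Krt7* 334 kb and *Krt20* (14 CpG) 51.8 kb. None of these 5 had a start-site peak in *Hells* cKO. The upper limit, 52.2%, includes the 45.6% of all protein-coding genes. Only 2 of the 5 had 20 or more CpG. In the epidermis, *Krt5* (17 CpG) was 361 kb, *Krt14* (17 CpG) 113 kb and *Krt1* (13 CpG) 223 kb away. In the hair follicle, *Krt31* (6 CpG), *Krt81*, *Krt71* (9 CpG) and *Krt25* (14 CpG) were 118, 386, 331 and 63.4 kb away. *Krt222* (17 CpG), at the edge of the chromosome 11 cluster, was the nearest of these named genes after *Krt10*, at 8.39 kb.

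Over all members, the median distance from a start to the nearest peak center was 105 kb in *Hells* CTRL and 112 kb in *Hells* cKO. The other protein-coding genes had medians of 65.9 kb and 5.22 kb, so they were nearer to *Hells* cKO peaks than to *Hells* CTRL peaks by a wide margin, whereas members were at like distances from both. The families differed: type II keratins were 86.3 kb from *Hells* CTRL and 334 kb from *Hells* cKO peaks, type I keratins 143 and 89.7 kb, and the *Krtap* genes of chromosome 16 were 218 and 62.7 kb away. As the members of a cluster share their neighbouring peaks, these medians rest on few peaks.

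**Figure D3:**
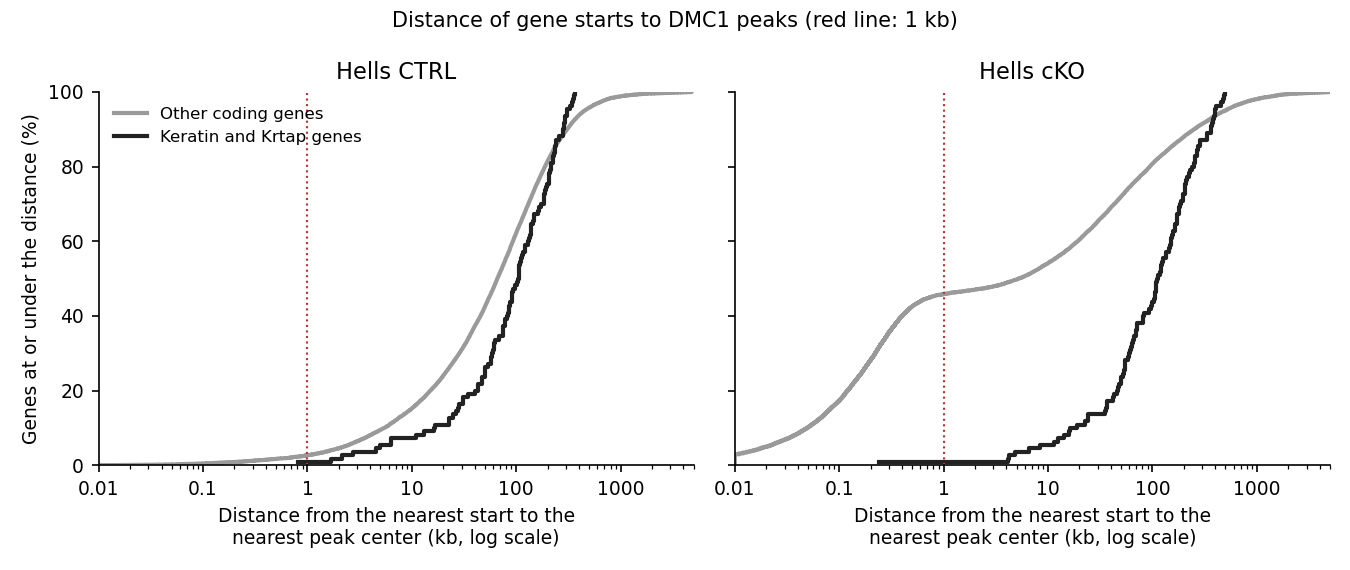
Cumulative share of genes (y axis, percent) by the distance from their nearest start to the nearest peak center (x axis, kb, log scale; distances under 0.01 kb are drawn at 0.01), for *Hells* CTRL (left) and *Hells* cKO (right). The red dotted line is 1 kb. The gray line of other protein-coding genes passes 1 kb at over 40% in *Hells* cKO, while the black line of members stays at 0.909% there and rises mostly beyond 10 kb.

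Gene bodies were nearly free of peaks. In *Hells* CTRL, 0 of 110 members had a peak center between their first and last base (upper limit 3.30%), where 18.1% of all protein-coding genes did. In *Hells* cKO, *Krt10* was the 1 of 110, where 42.7% of all did. Members are short, with a median length of 2350 bp against 17610 bp for the others, and their bodies in the clusters add up to 0.452 Mb. At that length, 0 *Hells* CTRL peaks allow up to 8.16 peaks per Mb, which includes the 4.35 of the genome. The *Hells* cKO peak of *Krt10* gives 2.21 per Mb (0.0560 to 12.3), which likewise includes the 6.69 of the genome. At this length no difference of the bodies from the genome was detectable in either list.

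Members with under 500 kb between neighbours form 4 clusters of 5 or more genes, which hold 105 of them. The 5 others, all *Krtap* genes of chromosomes 1 and 10, were between 4.23 and 214 kb from *Hells* cKO peaks, and *Krtap28-10* was the nearest. The clusters are chr11:99232761-100269871 with 27 type I keratins and 23 *Krtap* genes, chr15:101347444-102032027 with the 25 type II keratins and *Krt18*, chr16:88610705-89571183 with 24 *Krtap* genes, and chr7:142174535-142304594 with 5. Together they span 2.81 Mb and hold 8 *Hells* CTRL peaks and 6 *Hells* cKO peaks, none of which were common to both lists (centers 399 bp apart or less). The paper reports that only a small part of each whole list was common. With so few peaks, their absence here cannot be read as a trait of the clusters. The nearest pair of different lists was 4.71 kb apart, on both sides of the main start of *Krt10*.

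In the spaces between the bodies, *Hells* CTRL had 8 peaks in 2.36 Mb, or 3.39 per Mb (1.46 to 6.68), where the genome has 4.35. *Hells* cKO had 5, or 2.12 per Mb (0.688 to 4.94), where the genome has 6.69. The clusters thus did not differ from the genome beyond counting error in *Hells* CTRL, and they were under it in *Hells* cKO. The 500 kb on each side of the clusters had 18 *Hells* CTRL peaks, 4.50 per Mb (2.67 to 7.11), and 41 *Hells* cKO peaks, 10.2 per Mb (7.36 to 13.9). The largest cluster, on chromosome 11, had 10 *Hells* cKO peaks in the 500 kb on its left, 4 in the 500 kb on its right and 2 in its own 1037 kb. The chromosome 15 cluster had 6 and 9 on its sides, the nearest 270 and 42.2 kb away, and 0 within its 685 kb. The upper limit for the spaces of that cluster alone, 8.02 per Mb, includes the 7.17 of its chromosome. By the same measure the chromosome 11 cluster was under its chromosome, with an upper limit of 6.62 against 8.03. The chromosome 7 and 16 clusters had 8.07 and 3.21 per Mb, with intervals that include the 5.90 and 7.63 of their chromosomes.

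**Figure D4:**
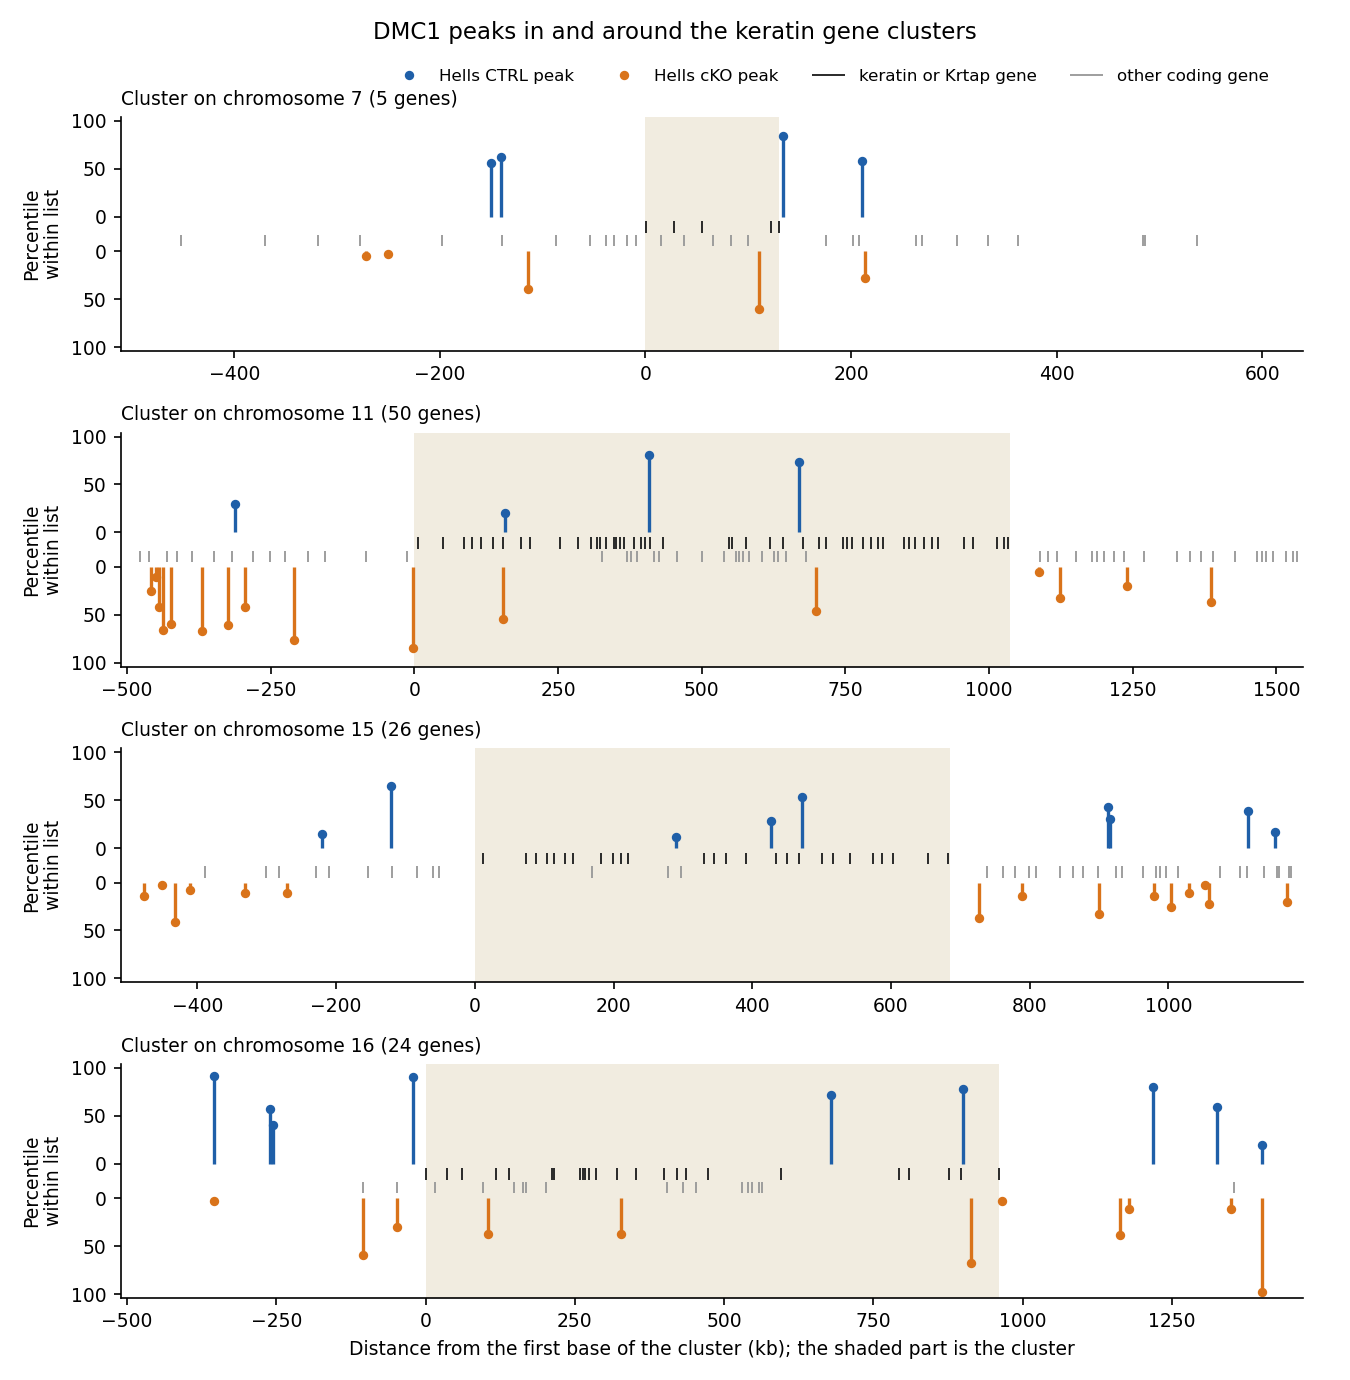
Peaks in the 4 clusters and 500 kb on each side, by the distance from the first base of the cluster (x axis, kb), with the percentile of a peak within its list as the height of its line (*Hells* CTRL up in blue, *Hells* cKO down in orange). Shading marks the cluster, black ticks the keratin and *Krtap* genes and gray ticks other protein-coding genes. The shaded parts hold 8 blue and 6 orange peaks, and the flanks 18 and 41, with 0 orange peaks within the chromosome 15 cluster.

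The *Hells* CTRL peaks of the clusters were CpG-poor, as is usual for their list, and some were strong. Their strengths were 23, 29, 35, 71, 139, 149, 181 and 198, with a median of 105 against 63 in the list, and 2 to 11 CpG lay within 250 bp of their centers. The strongest, at chr11:99640507-99642212 with a strength of 198 (percentile 80.4), lay 2.73 kb from *Krtap4-7*, between *Krtap4-2* and *Krtap4-7*. The next, at chr16:89509433-89511458, had a strength of 181 (percentile 78.4) and lay 2.12 kb from *Krtap7-1*, a glycine- and tyrosine-rich hair protein gene. On chromosome 11 a peak of strength 149 (percentile 73.7) lay 6.35 kb from *Krtap31-1*, and one of strength 29 (percentile 20.6) lay 1.69 kb upstream of the main start of *Krt10*. The remaining ones were a peak of strength 139 (percentile 72.1), 83.6 kb from *Krtap20-2*, a peak of strength 35 (percentile 28.1), 4.98 kb from *Krt72*, and a peak of strength 23 (percentile 11.5), 43.4 kb from *Krt6b*. The 100 bases at the center of the strongest (plus strand, chr11:99641310-99641409) have no CpG, and they are a simple repeat in large part, with the letters GAAA found 14 times and 95 bases that are A or G.
Krtap4-7 peak center: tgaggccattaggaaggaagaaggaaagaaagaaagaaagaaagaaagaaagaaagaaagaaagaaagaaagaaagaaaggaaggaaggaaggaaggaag

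The *Hells* cKO peaks of the clusters ranged widely in CpG number and were of middle strength. Their strengths were 23, 23, 28, 34, 40 and 49, with a median of 31 in the clusters and in the list, and 10, 11, 19, 28, 33 and 44 CpG lay within 250 bp of their centers, with a median of 23.5 against 24 in the list. Besides *Krt10*, 1 of them was at an annotated start: a peak of strength 28 (percentile 45.7) with 33 CpG lay 17 bp from the start of *Gm11560*, a processed pseudogene 4.11 kb from *Krtap31-2*. On chromosome 7 a peak of strength 40 (percentile 60.5) with 28 CpG lay within the long non-coding RNA gene *Gm45889*, 1170 bp from its start and 12.4 kb from *Krtap5-1*. On chromosome 16 peaks of strength 49 (percentile 67.8), 23 and 23 (percentile 37.0 each), with 10, 19 and 11 CpG, lay 16.01 kb from *Krtap7-1*, 14.2 kb from *Krtap13-1* and 6.59 kb from *Krtap19-9b*. The strongest of the 6 thus had the fewest CpG.

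Other coding genes inside the clusters were CpG-poor and had no start-site peak, and those in the flanks had more of both. The 40 inside, with a median of 3 CpG, had 0 start-site peaks in either list (upper limit 8.81%). At the class shares they would have held 0.647 in *Hells* cKO. Their count of 0 thus cannot be told apart from that of other genes with like CpG number. All of them carry *Gm* or *Rik* symbols, and whether some are keratin or *Krtap* genes was not tested. Of the 99 coding genes in the flanks, with a median of 35 CpG, 27 (27.3%) had a *Hells* cKO start-site peak and 2 a *Hells* CTRL one. That was under the 47.7 that the class shares give, so these flank genes had fewer *Hells* cKO start-site peaks than other genes of like CpG number. Per Mb, the flanks were not poor in *Hells* cKO peaks, with 10.2 against 6.69 in the genome. The *Hells* cKO peak nearest to the chromosome 11 cluster, 2.28 kb outside it, had a strength of 92 (percentile 84.6) and lay at the start of *Smarce1*, a subunit gene of the SWI/SNF chromatin remodeler. *Top2a*, the topoisomerase gene of dividing cells, had a *Hells* cKO peak of strength 65 on the same side. *Cdc6*, a DNA replication licensing gene, had peaks in both lists, of strengths 36 in *Hells* CTRL and 40 in *Hells* cKO. They lay 312 and 325 kb from the cluster, so they were at different starts of the gene. *Acvrl1*, a receptor gene of endothelium, had only a *Hells* CTRL peak, of strength 25. Near the chromosome 15 cluster the translation factor gene *Eif4b* had a *Hells* cKO peak of strength 23, and beyond the chromosome 16 cluster *Tiam1*, an exchange factor gene of RAC, had 1 of strength 96. Of the 27 flank genes with a *Hells* cKO start-site peak, 25 had 30 or more CpG. The exceptions were *Cldn17* (10 CpG, strength 39) and *Cldn8* (6 CpG, strength 20), on the other side of the chromosome 16 cluster.

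The authors kept uniquely mapped reads, and some *Krtap* genes hold sequence that is repeated in the genome. Of the words of 50 bases within 1 kb of the CpG-richest start, a median of 97.2% occurred once in the genome for members (quartiles 87.9 and 100), against 100% for 1083 protein-coding genes sampled at regular steps. The lowest values were in *Krtap* genes, with 44.0% at *Krtap4-13* and a median of 67.6% for the 5 genes of chromosome 7. Those of chromosomes 11 and 16 had medians of 94.0% and 97.1%. In 95 of 110 members (86.4%) at least 80% of the words were unique, against 993 of the 1083 sampled genes (91.7%). Under 50% were unique in 1 member and in 50 of the sampled genes. Of the 48 members with 10 or more CpG, 45 had at least 80% unique words, and 1 of these, *Krt10*, had a *Hells* cKO start-site peak.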

How the data were processed

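Final DMC1 ChIP-SSDS peak lists of *Hells* CTRL and *Hells* cKO testes were analysed. The other samples of the 14 in the series (5hMeDIP and input) were not analysed here. The authors cut reads to 50 bp, required Phred scores over 28, mapped them to mm10 and retained uniquely mapped, non-duplicated reads. They called peaks with MACS, selected them with the Irreproducible Discovery Rate framework on pooled replicates and left out chromosome Y. The deposited value of each peak is the authors' score, a fragment count normalized to local background. All scores are whole numbers, so their scaling to library size is not visible.

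From these lists, the midpoint of an interval was taken as the peak center, and percentiles were mean ranks within a list. Starts were those of all transcripts of GENCODE M21 genes, and sequence came from GRCm38.p6. Shares have Clopper-Pearson and densities exact Poisson 95% intervals. Named genes were all members with a peak, the nearest members to peaks in the spaces, and keratins typical of an epithelium. *Gm11560*, *Gm45889*, the genes in the flanks, the CpG-richest members and the members with the lowest or nearest values were named after their values were seen. The members and lists were chosen with earlier results of these data known. The alternatives concerned the reach, the peak position, the transcripts counted, list length, chromosomes, cluster limits and CpG windows. The code was tested on simulated data: of 500 planted peaks, 100% were assigned to their start. The code ran in Python 3.11.15 (scipy 1.17.1, pandas 2.3.3, matplotlib 3.10.9, numpy 2.4.6).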

Additional observations from a re-analysis of the deposited data

How the results depend on the processing

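Of 39 values recomputed, 30 moved by less than the limit for their kind. Some of these could not move. Chromosome X holds no member, another background leaves the member count as it is, and joining members within 200 kb or 1 Mb gave the same 4 clusters. The 30 is thus not a measure of stability. The *Hells* CTRL count of members with a start-site peak went from 1 to 0 with a reach of 500 bp or when the interval had to cover the start, and to 2 with a reach of 2 kb. The *Hells* cKO count was 1 with each other reach, peak position, transcript type, list length and chromosome set tried, among them the strongest 11133 peaks (background 37.0%), and was 0 with the start farthest upstream, an alternative added after the data were seen. The body count of *Hells* cKO went from 1 to 0 when 1 kb around the starts of the gene was left out, since the *Krt10* peak counts both as start-site and as body. The percentile of the *Krt2* peak was 59.7 and that of the *Krt10* peak 38.6 among peaks at protein-coding starts. The number of *Hells* CTRL peaks at class shares went from 1.65 to 1.06 with the start farthest upstream, and for *Hells* cKO the range was 11.5 to 15.96. Median CpG numbers with 500 bp to each side were 16 for members and 50 for all protein-coding genes. No paired analysis was possible because each genotype has 1 merged list. With 14 peaks in the clusters, differences between clusters were not resolved.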

Other observations

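Genes related to the keratins were counted the same way. Of 15 other intermediate filament genes, which are mostly CpG-rich (median 47 CpG), 3 had a *Hells* cKO start-site peak (20%, 95% interval 4.33 to 48.1) and 0 a *Hells* CTRL one. The interval includes the 45.6% of all protein-coding genes. The nuclear lamina genes *Lmnb1* and *Lmna* had strengths of 196 (percentile 96.8) and 49, and *Bfsp1*, a lens filament gene, a strength of 40. The 12 without a peak were *Lmnb2* (49 CpG), *Vim* (38 CpG), *Des* (34 CpG), *Gfap* (21 CpG), *Prph* (30 CpG), *Nefl* (47 CpG), *Nefm* (53 CpG), *Nefh* (48 CpG), *Ina* (55 CpG), *Nes* (38 CpG), *Synm* (53 CpG) and *Bfsp2* (6 CpG).

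Of 24 partner genes of keratinocytes, 8 had a *Hells* cKO start-site peak (33.3%, 15.6 to 55.3), where the interval includes the background of 45.6%, and 1 a *Hells* CTRL one (4.17%, 0.105 to 21.1), where it includes 2.7%. Among the genes of desmosomes and cytolinkers, *Dsp* (strength 50), *Pkp2* (33), *Pkp3* (20) and *Plec* (11) had a *Hells* cKO peak, and *Jup* (41 CpG), *Pkp1* (45 CpG), *Evpl* (29 CpG) and *Ppl* (48 CpG) had none. Among transcription factor genes, *Gata3* (strength 27) and *Lef1* (24) had one, and *Trp63*, *Klf4*, *Ovol1*, *Foxn1*, *Hoxc13*, *Msx2* and *Dlx3*, with 5 to 70 CpG, had none. *Ivl*, *Lor* and *Tchh*, structural genes of the late epidermis and hair root sheath with 1 or 2 CpG, *Flg* (33 CpG) and *Krtdap* (14 CpG) had no peak. *Krtcap3* had a *Hells* cKO peak of strength 54. *Krtcap2*, whose symbol resembles those of the members but which codes for a subunit of the oligosaccharyltransferase complex, had peaks in both lists, of strengths 24 in *Hells* CTRL and 12 in *Hells* cKO.

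Among the other protein-coding genes with TATAAA 20 to 40 bp upstream of the start, 65 of 482 (13.5%) had a *Hells* cKO start-site peak, against 45.8% of all the other genes. Among those with under 20 CpG, 12 of 367 with the letters (3.27%) and 659 of 8092 in all (8.14%) had one.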
